A study of Mus musculus with 6 samples.

Results

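Predicted gene models and uncharacterised transcripts carry provisional names: Gm with a number (predicted mouse genes), LOC with a number (unnamed RefSeq loci) or a name ending in Rik (complementary DNAs of the RIKEN collection). All genes so named in both deposited gene lists of an RNA sequencing experiment are described here, apart from Gm12185, which was left out by the rule. There were 32 of them among 817 distinct symbols. The count list of 232 genes held 25, of which 22 were Gm and 3 were Rik models, and the second list of 602 genes held 7, of which 2 were Gm, 2 were LOC and 3 were Rik models. No model was in both lists.

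RNA came from mouse cells in culture, by their labels preadipocytes, the precursors of fat cells, of the 3T3-L1 line. The tested cultures were transfected with small interfering RNA (siRNA) against Lhx8, a LIM homeobox transcription factor, and are labelled LHX8 deficient (3 libraries). The vehicle cultures received the transfection reagent Turbofectamine alone and are labelled wild type (3 libraries), and all 6 were grown in DMEM with fetal calf serum. The comparison asked which transcripts differ when Lhx8 is targeted. Because the vehicle cultures received no siRNA, an effect of losing Lhx8 and an effect of any transfected siRNA cannot be told apart. The labels number the cell line from 3T3-L1 to 3T3-L6 across the libraries, whereas the study describes cultured adipocytes, so the origin and stage of the cells are uncertain. The labels do not state whether each library was a culture of its own, and the p-values rest on a spread among libraries that could be technical alone.

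The authors chose both lists for a difference between these groups, so a difference or a direction within a list is not independent evidence. Lhx8 itself is in neither list, and the targeting could not be checked in these lists. The study reports a loss of LHX8 immunostaining in cultured primary mouse adipocytes after Lhx8 siRNA. Summed over the count list, the siRNA libraries held 24314 to 25922 estimated counts, against 24570 and 28920 in vehicle 2 and vehicle 1 and 130467 in vehicle 3. Vehicle 3 had the top count in 201 of the 232 genes, so the results are also given without it. Of 9 preadipocyte or fibroblast markers 3 were in the second list (Pdgfra, Col3a1, Ly6a), and of 8 adipocyte markers 2 were (Adipoq, Lpl). Of 8 leukocyte markers 3 were in the count list (Itgb2, Mpeg1, Cd33), with a summed count of 27 to 34 in the siRNA libraries, against 25 and 30 in vehicle 2 and vehicle 1 and 308 in vehicle 3. The part of these markers in the results was not tested.

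A predicted gene model is placed on the genome by software, from an open reading frame or from transcript evidence, before anything is known of a function. Many such models lie in repeats or in clusters of nearly identical copies, and others are read-through models, which join exons of neighbouring genes. A read from such a stretch matches several places at once, and RSEM, the counting tool named in the submitters' processing notes, divides it among the genes it matches, which leaves fractional counts.

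Sequence was compared through the transcripts of each gene in the GENCODE M21 annotation (GRCm38), which held 231 of the 232 gene identifiers. Each transcript was cut into overlapping stretches of 50 bases, and the share of stretches also found in a transcript of another gene was taken. The 24 models with an entry shared a median of 97.2% of their stretches with other genes, and 17 of them (70.8%) shared at least 80%. The other 207 genes of the list shared a median of 0%, and 6 of them (2.90%) shared at least 80%. Only 3 models were below 1%, against 163 of the other genes.

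**Figure D1:**
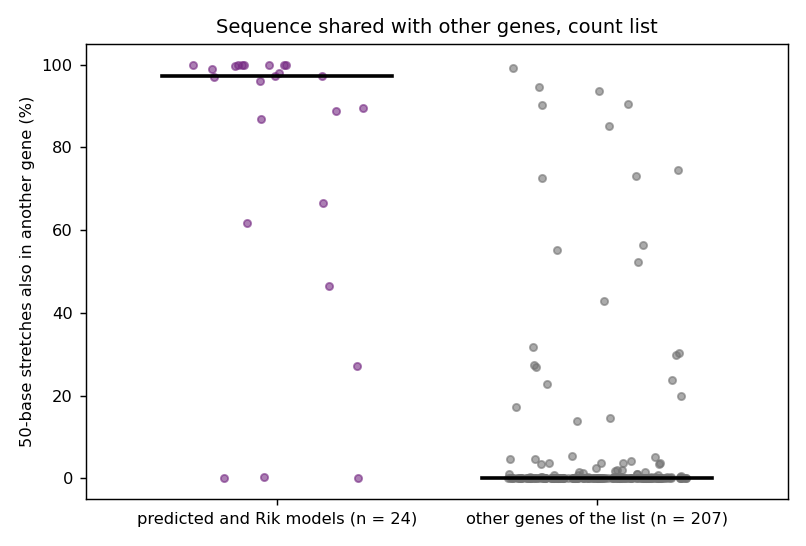
Share of 50-base stretches that also occur in a transcript of another gene (y axis, percent), for 24 predicted and Rik models of the count list and for the other 207 genes, with 1 point per gene, spread sideways at random, and a line at the median. Most models lie above 80%, with a median of 97.2%, while the median of the other genes is 0%.

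Fractional counts were common among the models. Of the 150 values of the models 100 (66.7%) were fractional, against 84 of 1242 values (6.76%) of the other genes. Over the whole list, each of the 23 genes that shared at least 80% had a fractional value, and so had 1 of the 166 genes below 1%. Of those 23 genes, models or not, 12 had a higher mean in siRNA than in vehicle libraries, against 8 of the 166 genes below 1%. The 12 were 10 of the 17 models and 2 of the 6 other genes that shared at least 80%. Of the 42 genes between 1% and 80%, 5 had a higher mean, and 4 of these were models. Without vehicle 3 a higher mean was found in 15 of the 23, 16 of the 42 and 58 of the 166 genes. No test was made of this.

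The 25 models were put into 5 kinds, the satellite repeat models by name and the others by their sequence. The satellite models shared 27.2% (Gm10800) to 66.5% (Gm10718) of their stretches with other genes. Satellite repeat models numbered 4, models with copies elsewhere 8, models lying over 2 or more genes on their strand 9, and models of mostly their own sequence 3, and Gm2411 had no GENCODE M21 entry. The 4 satellite models are shown because they were among the models whose groups did not overlap. Satellite DNA is the tandem repeat that fills the heterochromatin around mouse centromeres. Below are the first 180 coding bases of 1 GENCODE M21 transcript of each, 5′ to 3′, with capitals at the 12 positions where the 4 differ. The other 168 positions (93.3%) are alike.
Gm10719 (chromosome 9): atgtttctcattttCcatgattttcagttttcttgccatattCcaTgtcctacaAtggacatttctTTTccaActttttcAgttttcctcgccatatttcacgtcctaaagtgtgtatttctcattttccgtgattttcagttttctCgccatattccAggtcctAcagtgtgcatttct
Gm10718 (chromosome 9): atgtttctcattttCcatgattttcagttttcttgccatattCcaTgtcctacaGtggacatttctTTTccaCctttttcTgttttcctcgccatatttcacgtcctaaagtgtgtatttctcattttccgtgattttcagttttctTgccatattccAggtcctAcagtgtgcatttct
Gm10717 (chromosome 9): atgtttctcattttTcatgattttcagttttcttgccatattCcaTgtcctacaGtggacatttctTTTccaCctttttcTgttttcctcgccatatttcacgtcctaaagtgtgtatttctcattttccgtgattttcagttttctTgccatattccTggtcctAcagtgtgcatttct
Gm10800 (chromosome 2): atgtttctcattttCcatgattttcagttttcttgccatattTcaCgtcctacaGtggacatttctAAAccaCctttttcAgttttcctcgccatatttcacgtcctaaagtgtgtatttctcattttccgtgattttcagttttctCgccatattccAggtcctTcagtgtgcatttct
Within each chromosome 9 model the coding sequence matched itself best when shifted by 234 bases, with 62.6% to 63.8% of positions alike, and in Gm10800 when shifted by 225 bases, with 56.3% alike.

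The other shared stretches are shown by 3 examples. The X-linked models Gm10147, Gm10058 and Gm4836 have 1 coding sequence of 636 bases in common, and its first 60 bases are printed in lower case. The other examples are 40 coding bases across a junction in each of 2 models over several genes, with the last 20 bases from the upstream gene in lower case and the first 20 from the downstream gene in capitals.
Gm10147, Gm10058 and Gm4836: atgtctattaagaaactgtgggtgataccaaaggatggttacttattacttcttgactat
Gm20517 (chromosome 17), Med20 into Usp49: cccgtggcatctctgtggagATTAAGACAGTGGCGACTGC
Gm49333 (chromosome 16), Eef1akmt4 into Ece2: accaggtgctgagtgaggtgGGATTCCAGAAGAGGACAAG
In Gm20517 98.0% and in Gm49333 97.3% of the stretches were also in a neighbouring gene, and a read within them matches that neighbour as well.

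All 4 satellite repeat models were higher in every siRNA library than in any vehicle library. Of the 25 models 7 had groups that did not overlap, against a background of 18.5% of the whole list. Of these 6 were higher with siRNA (background 6.03%) and 1 was lower (background 12.5%). Without vehicle 3 there were 10 (background 27.6%), of which 8 were higher (background 14.7%) and 2 were lower (background 12.9%). With 3 libraries a group an exact permutation test cannot go below p = 0.1 (two-sided). The satellite models also share sequence with each other, Gm10718 for 43.2% of its stretches with Gm10717. Reads can thus be divided between such models, and they are not independent in these counts. The same holds for the splits and medians over all models below.

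Gm10719 had 85.9, 64.3 and 33.4 counts in the siRNA libraries, against 27.0, 14.1 and 2.88 in the vehicle libraries. Gm10718 had 46.8, 24.8 and 22.7 counts in siRNA libraries, against 8.45, 3.72 and 2.11 in vehicle libraries. Every siRNA value of both was above every vehicle value, and vehicle 3 was the lowest library. Gm10800 had 26.8, 19.6 and 12.8 counts with siRNA, against 5.17, 4.33 and 3.01 with vehicle. Gm10717 had 8.37, 9.77 and 2.99 counts with siRNA, against 0, 0 and 1 with vehicle, a ratio of 21.1 with a 95% counting interval of 3.38 to 868. Gm10719, Gm10718 and Gm10800 had fractional values in all 6 libraries, and Gm10717 in 3.

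Summed, the 4 satellite models had 168, 118 and 71.9 counts with siRNA, against 40.6, 22.1 and 9 with vehicle. The means were 119 ± 48.0 counts with siRNA and 23.9 ± 15.9 with vehicle (SD, n = 3 each), a ratio of 4.99, of 3.80 without vehicle 3, of 7.67 without vehicle 1 and of 5.90 after TMM scaling (edgeR's normalization to a common core of genes). TMM took that core from the selected list, in which no unchanged core is known. It set the relative size of vehicle 3 at 4.56, against 0.71 to 0.78 for the other libraries, and so lowered the values of vehicle 3 and raised the others. The fitted log2 fold (edgeR's quasi-likelihood test) was 2.73 ± 1.14 (SE) for Gm10718, 2.29 ± 1.24 for Gm10800 and 2.05 ± 1.10 for Gm10719. Without vehicle 3 it was 2.38 ± 0.52, 2.12 ± 0.46 and 1.57 ± 0.51, with a smaller error and a somewhat smaller fold in each. Adjusted over the whole list, none passed 0.05 in either fit (edgeR adjusted p = 0.317 for each with all libraries, and 0.162, 0.162 and 0.310 without vehicle 3).

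**Figure D2:**
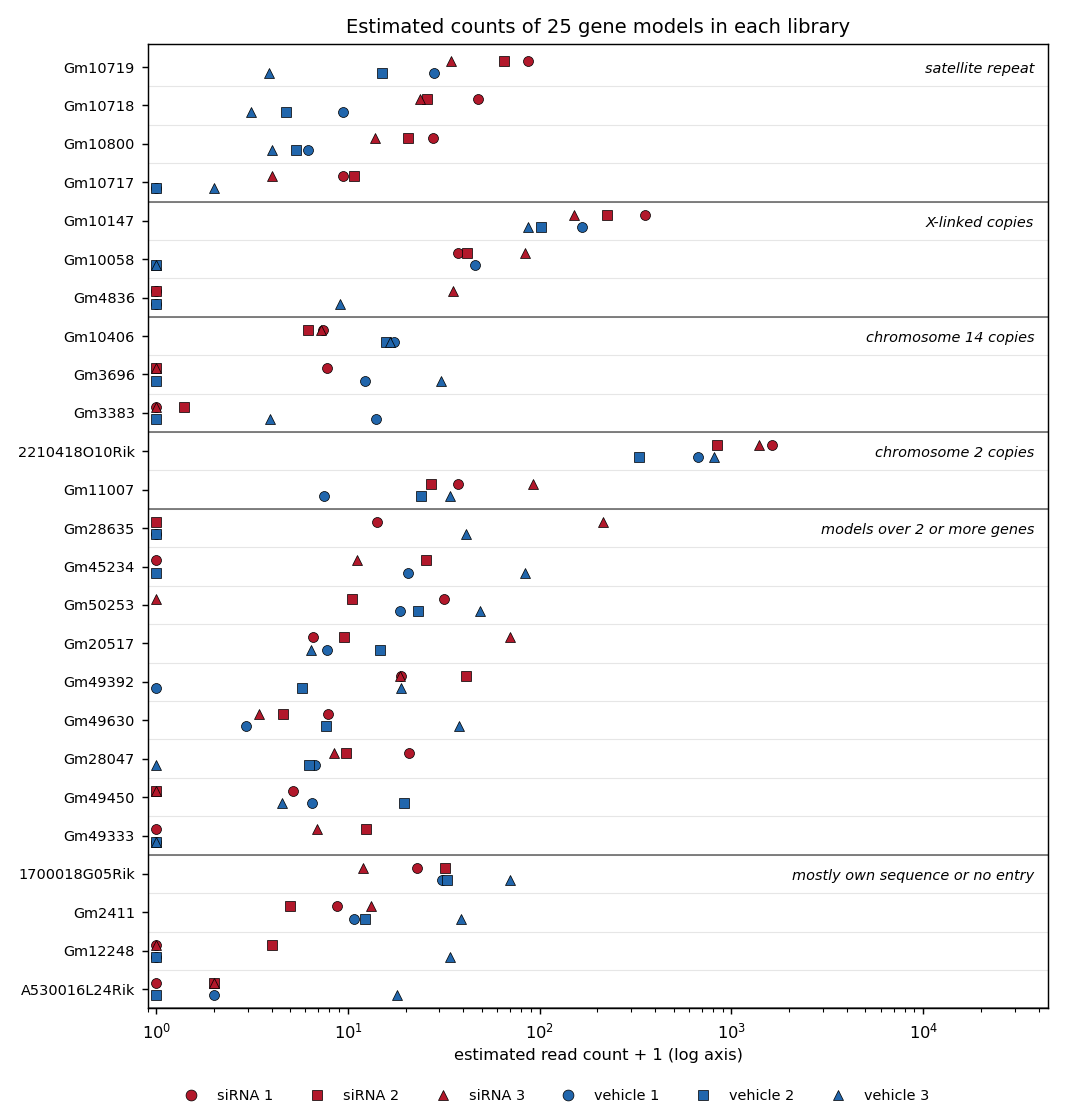
Estimated read count plus 1 (x axis, log scale) of the 25 models of the count list in the 6 libraries, with the siRNA libraries in red above the vehicle libraries in blue and the shape giving the replicate number, grouped by kind of sequence. The satellite models, 2210418O10Rik and Gm28047 have every red point right of every blue one, and Gm10406 has every red point left of every blue one. For Gm10406 this did not hold after TMM scaling.

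The X-linked models belong to a multicopy family that includes Slx (Sycp3-like X-linked, expressed in male germ cells) and Xlr (X-linked lymphocyte-regulated). Every one of their stretches was also in another of 48 genes, and 37.6% to 39.6% of them in Slx. Gm10147 had 354, 222 and 150 counts with siRNA, against 165, 100 and 85.4 with vehicle, and the groups overlapped in 1 pair, siRNA 3 and vehicle 1. Gm10058 had 36.6, 40.8 and 82.8 counts with siRNA, against 45.1, 0 and 0 with vehicle. Gm4836 had 0, 0 and 34.1 counts with siRNA, against 0, 0 and 8.03 with vehicle, so that siRNA 3 held 80.9% of all its counts. Single members of the trio thus were at 0 in some libraries and well above 0 in others of the same group.

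The sum of the X-linked trio was steadier than 2 of its members. It was 391, 263 and 267 counts with siRNA, against 210, 100 and 93.4 with vehicle, and the groups did not overlap. The means were 307 ± 72.8 counts with siRNA and 134 ± 65.4 with vehicle (SD, n = 3 each), a ratio of 2.28, of 1.98 without vehicle 3 and of 3.01 after TMM scaling. The fitted log2 fold of Gm10147 was 1.05 ± 1.02 (SE, edgeR adjusted p = 0.332), and of Gm10058 1.83 ± 1.25 (edgeR adjusted p = 0.317). Without vehicle 1, the one vehicle library with counts of Gm10058, edgeR's adjusted p for it was 0.00381, the only call of a model in the 6 fits that left out 1 library.

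The models on chromosome 14, Gm10406, Gm3696 and Gm3383, share 86.8% to 100% of their stretches with 105 genes, none of which has a name beyond a provisional one. Gm10406 had 6.42, 5.15 and 6.21 counts with siRNA, against 16.4, 14.8 and 15.5 with vehicle. It was the only model of the 25 with every siRNA value below every vehicle value, which did not hold after TMM scaling, and its replicates lay close together (5.93 ± 0.68 counts with siRNA and 15.6 ± 0.79 with vehicle, SD, n = 3 each). The fitted log2 fold was -1.45 ± 1.25 (SE, edgeR adjusted p = 0.323), and without vehicle 3 it was -1.43 ± 0.34 (edgeR adjusted p = 0.179).

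Gm3696 and Gm3383 were at 0 in several libraries. Gm3696 had 6.73, 0 and 0 counts with siRNA, against 11.3, 0 and 29.6 with vehicle. Gm3383 had 0, 0.4 and 0 counts with siRNA, against 13.1, 0 and 2.92 with vehicle, which is at least 5.33-fold lower when the siRNA libraries are set at a floor of 3 counts over the group, and at least 6.54-fold lower without vehicle 3. Vehicle 1 held 79.7% of its counts, and without it the vehicle libraries summed to 2.92, under that floor, so that no fold can be given. Summed over the 3 models there were 13.2, 5.55 and 6.21 counts with siRNA, against 40.7, 14.8 and 48.0 with vehicle. This sum was lower in every siRNA library, with a ratio of 0.241, and of 0.299 without vehicle 3, and after TMM scaling it was 0.419 and the groups overlapped.

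On chromosome 2 lie 2210418O10Rik and Gm11007, which share stretches with the zinc finger genes Zfp931 and Zfp970 among others (76 and 59 genes in all). Zinc finger genes of this kind form large clusters in the mouse genome. Every stretch of 2210418O10Rik was also in Gm14296, and every stretch of Gm11007 in Gm4724. Zfp931, the named gene that shared most, held only 2.80% of the stretches of 2210418O10Rik and 7.81% of those of Gm11007. 2210418O10Rik had the highest counts of the models, which are not per length, and held 60.2% to 69.0% of all counts of the 25 models in the siRNA libraries, against 54.4% to 62.7% in the vehicle libraries.

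2210418O10Rik had 1635, 844 and 1392 counts with siRNA, against 666, 327 and 807 with vehicle. The siRNA values were all higher, but the gap between siRNA 2 and vehicle 3 was small beside the spread within each group. The means were 1290 ± 405 counts with siRNA and 600 ± 247 with vehicle (SD, n = 3 each), and the fitted log2 fold was 1.10 ± 0.85 (SE, edgeR adjusted p = 0.317). Without vehicle 3 the log2 fold was 1.38 ± 0.40 (edgeR adjusted p = 0.230). Gm11007 had 36.4, 26.2 and 90.7 counts with siRNA, against 6.50, 23.0 and 33.2 with vehicle, and its groups overlapped through vehicle 3. The sum of both models had a ratio of 2.16, of 2.62 without vehicle 3 and of 3.69 after TMM scaling, and the groups of the sum were apart in each. The log2 fold of Gm11007 was 1.30 ± 1.07 (SE, edgeR adjusted p = 0.323), and 1.81 ± 0.76 without vehicle 3 (edgeR adjusted p = 0.434).

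**Figure D3:**
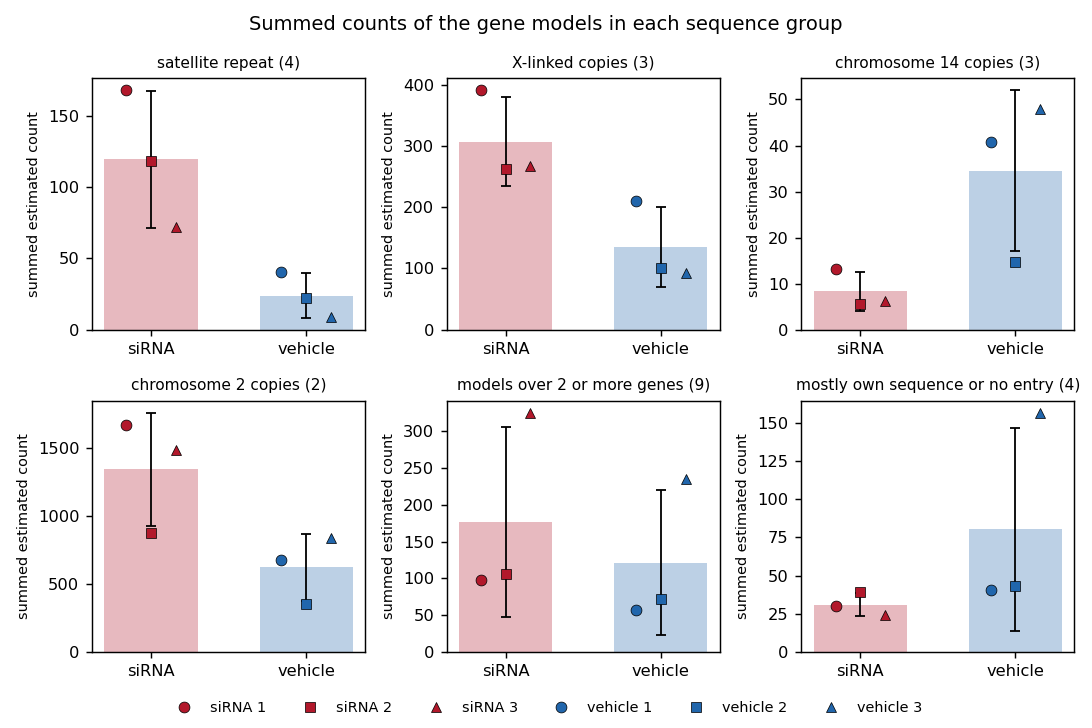
Summed estimated counts (y axis) of the models of each kind, with siRNA libraries left of vehicle libraries, bars at the mean, error bars of 1 SD (n = 3 each), points for the libraries and the number of models in brackets. Satellite, X-linked and chromosome 2 sums are higher in every siRNA library, with ratios of 4.99, 2.28 and 2.16, and the chromosome 14 sum is lower, with a ratio of 0.241. The sum of the 4 models of mostly their own sequence or with no entry is also lower in every siRNA library (ratio 0.385), and the groups of these lower sums overlapped after TMM scaling.

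Of the 9 models over several genes 7 were at 0 in at least 1 library, and the other 2, Gm20517 and Gm49630, were at 0 in none. The sum of the 9 was 98.0, 106 and 326 counts with siRNA, against 57.2, 71.2 and 235 with vehicle, and the groups overlapped (ratio 1.46). Without siRNA 3 the ratio was 0.844, on the other side of 1. Without vehicle 3 it was 2.75, and after TMM scaling it was 3.34, and in both of these the siRNA sums were all higher. Gm28047 was the one with separate groups. It joins Atf7, a basic leucine zipper transcription factor (79.1% of its stretches), to Npff, the precursor of neuropeptide FF (17.9%). It had 19.9, 8.79 and 7.41 counts with siRNA, against 5.72, 5.27 and 0 with vehicle, and its log2 fold was 1.68 ± 1.48 (SE, edgeR adjusted p = 0.323).

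Gm28635 lies over Ctnnd1, which encodes p120-catenin (94.6% of its stretches), and Tmx2, a thioredoxin-related membrane protein. It had 13.1, 0 and 213 counts with siRNA, against 0, 0 and 40.3 with vehicle, so that siRNA 3 alone held 79.9% of all counts. Gm20517 lies over Usp49, a deubiquitinase (88.7%), and Med20, a Mediator subunit (9.25%). It had 5.59, 8.53 and 69.2 counts with siRNA, against 6.79, 13.7 and 5.43 with vehicle. In both models 1 siRNA library stood apart from the others, and without siRNA 3 the fitted log2 fold was -1.02 for Gm28635 and -0.21 for Gm20517, against 2.49 ± 1.45 and 1.68 ± 1.13 (SE) with all libraries.

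Gm49392 overlaps 4930486L24Rik (75.8%), the provisional models Gm49393 and Gm49391, and Ctla2b, a relative of cathepsin propeptides. It had 17.8, 40 and 17.7 counts with siRNA, against 0, 4.72 and 17.8 with vehicle. The groups met at vehicle 3, without which the siRNA values were all higher (log2 fold 3.28 ± 0.92, SE, edgeR adjusted p = 0.230; 1.71 ± 1.18 with all libraries, adjusted p = 0.317). Gm45234 lies over Atn1, which encodes the corepressor atrophin-1 (87.9%), and Grcc10. It had 0, 24.4 and 10.1 counts with siRNA, against 19.6, 0 and 83.2 with vehicle, and its sign depended on vehicle 3 (log2 fold -1.59 ± 1.25 with it, 0.18 ± 1.48 without it).

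Gm50253, which GENCODE M21 names Ggnbp1 (gametogenetin binding protein), also covers Zbtb9, a zinc finger gene (58.3% of its stretches). It had 30.5, 9.43 and 0 counts with siRNA, against 17.7, 22.1 and 47.5 with vehicle. Gm49333 covers Ece2, which encodes endothelin converting enzyme 2 (84.2%), and Eef1akmt4, which encodes a methyltransferase of elongation factor 1A (13.1%). It had 0, 11.4 and 5.85 counts with siRNA, against 0 in each vehicle library, which is at least 5.76-fold higher, with the floor of 3 counts set over the vehicle group. As siRNA 1 was also at 0, the groups were not apart. Gm49450, over the alpha-tubulin genes Tuba1a (79.3%) and Tuba1b (74.1%), had 4.19, 0 and 0 counts with siRNA, against 5.46, 18.7 and 3.5 with vehicle. Without vehicle 3 its siRNA values were all lower (log2 fold -3.06 ± 1.20, SE, edgeR adjusted p = 0.394). With all libraries the log2 fold was -2.70 ± 1.82 (SE, edgeR adjusted p = 0.317).

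Gm49630 was the one model of the 9 whose neighbours were in the count list too, Ttll2, a tubulin tyrosine ligase-like gene (47.2% of its stretches), and Unc93a2, an unc-93 homolog (45.8%). It had 6.84, 3.6 and 2.45 counts with siRNA, against 1.94, 6.70 and 36.9 with vehicle. Ttll2 had 25.3, 33.4 and 20.6 counts with siRNA, against 16.8, 13.96 and 274 with vehicle. Unc93a2 had 69.1, 78.4 and 84.3 counts with siRNA, against 59.5, 66.5 and 593 with vehicle. Gm49630, Ttll2 and Unc93a2 were all highest in vehicle 3. Without vehicle 3 the mean of Gm49630 was 4.30 counts with siRNA and 4.32 with vehicle. That of Ttll2 was 26.4 against 15.4 and that of Unc93a2 77.3 against 63.0, with every siRNA value higher in both. The other 18 neighbours of the 9 models were in neither list.

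The 3 models of mostly their own sequence and Gm2411 were highest in vehicle 3, as most of the list was. A530016L24Rik, also named Nrac (nutritionally regulated adipose and cardiac enriched), had 0, 1 and 1 counts with siRNA, against 1, 0 and 17 with vehicle. Its ratio was 0.111 with a 95% counting interval of 0.0125 to 0.464. Gm12248 had 0, 3 and 0 counts with siRNA, against 0, 0 and 33 with vehicle (ratio 0.0909, 95% counting interval 0.0178 to 0.290). In both, vehicle 3 held most of the counts, 85.0% and 91.7%, and without vehicle 3 the ratio of A530016L24Rik was 1.33 (0.0694 to 78.7) and Gm12248 was at or under 3 counts in both groups. These intervals cover counting error only.

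1700018G05Rik, an X-linked transcript that RefSeq lists as noncoding and GENCODE M21 as protein coding, had 22, 31 and 11 counts with siRNA, against 30, 32 and 69 with vehicle. Gm2411 had 7.79, 3.99 and 12.1 counts with siRNA, against 9.79, 11.2 and 38 with vehicle. The 3 with a GENCODE M21 entry had whole-number counts throughout. Summed, the 4 had 29.8, 39.0 and 24.1 counts with siRNA, against 40.8, 43.2 and 157 with vehicle. This sum was lower in every siRNA library, with a ratio of 0.385, and of 0.737 without vehicle 3, and after TMM scaling it was 0.880 and the groups overlapped.

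Over all 25 models, the mean was higher with siRNA for 14 and lower for 11, whereas it was higher for 11 and lower for 196 of the other 207 genes. The models made up 10.8% of the list but 56% of its 25 genes with a higher mean. Vehicle 3 had the top count in 8 of the models, against 193 of the 207 other genes, and the lowest in 6 models, against 10 other genes. Without vehicle 3, 17 models had a higher and 8 a lower mean with siRNA, against 72 and 132 of the other genes. Without siRNA 3, 11 models had a higher and 14 a lower mean, against 11 and 196 of the other genes, so that the majority among the models turned. At least 2-fold higher without vehicle 3 were 14 of the 25 models (56%), against 15 of the 207 other genes (7.25%), and at least 2-fold lower were 4 models (16%), against 30 other genes (14.5%). Among the 14 were Gm12248, Gm4836, Gm10717, Gm28635 and Gm49333, which were at 0 in vehicle 1 and vehicle 2, so that any siRNA count passed. Other genes at 0 there would pass in the same way.

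As a share of the summed counts of the list the models took 9.75%, 5.41% and 8.76% in the siRNA libraries, against 3.67%, 2.45% and 1.06% in the vehicle libraries. Their own summed counts were 2371, 1403 and 2177 with siRNA, against 1062, 601 and 1382 with vehicle. Most of each sum was 2210418O10Rik. Without that model the sums were 736, 558 and 785 with siRNA, against 396, 274 and 575 with vehicle. The groups then overlapped, with siRNA 2 below vehicle 3. Vehicle 3 was thus the lowest library in share, and the highest of the vehicle libraries in summed counts of the models.

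No model passed an adjusted p of 0.05 in edgeR's quasi-likelihood test with 1 common library size (0 of 25, background 0% of 232 genes). In that fit 1 model, Gm10718, had an unadjusted p under 0.05, against a background of 11.6%. DESeq2 with size factors of 1 and limma-voom called none, and had 2 and 4 models under an unadjusted 0.05, out of 15 and 9 genes of the whole list. DESeq2 with its own size factors called 1 gene of the list, the model Gm49392 (log2 fold 3.22, DESeq2 adjusted p = 0.0434). Without vehicle 3, edgeR called none of the 23 models tested and none of 201 genes (background 0%), with 8 models and 22 genes under an unadjusted 0.05.

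The median log2 fold of the 25 models was 1.10, beside -1.55 over all genes tested, and 18 of the 25 lay above the median of the list. With models that had a group at 0 set at their bound, the median of the models was again 1.10. Without vehicle 3 the medians were 1.25 for 23 models and -0.10 for all genes. Without siRNA 3 the median of the models was below 0, at -0.40 for 24 models, beside -1.60 for all genes, with a positive fold for 11 models and a negative one for 13. TMM scaling moved the median of all genes by 1.42, to -0.12, and the models lay 2.00 above it, against 2.65 above the median with 1 common library size. Under TMM 91 of the 232 genes (39.2%) had a positive fold, against 25 (10.8%) with 1 common size, and 15 of the 25 models did, against 14.

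**Figure D4:**
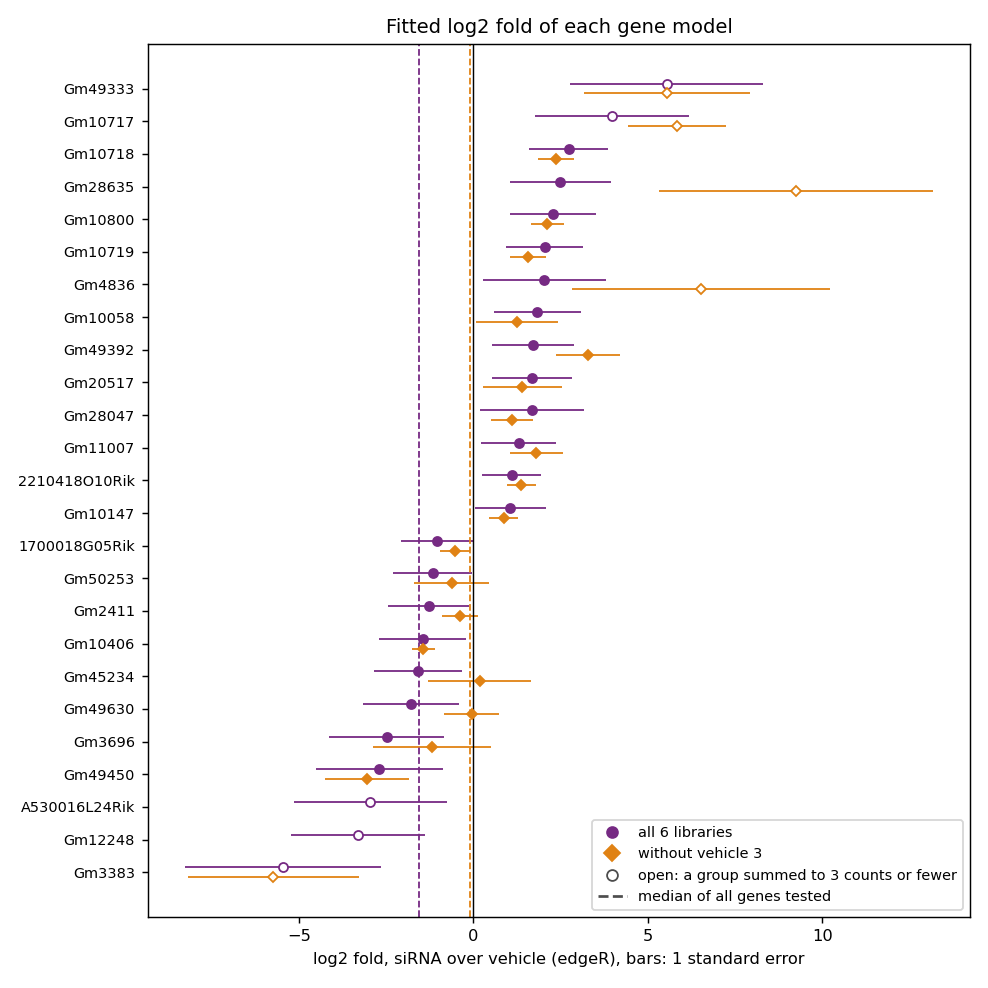
Log2 fold of siRNA over vehicle (x axis) for each model of the count list from edgeR, with all 6 libraries (circles) and without vehicle 3 (diamonds), bars of 1 standard error and dashed lines at the median of all genes tested, -1.55 and -0.10. Of the models 14 lie above 0 with all libraries, and open symbols, where a group summed to 3 counts or fewer, depend on the constant the tool adds and are no bounds.

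In the second list, the values of the models were of another kind and scale, and nearly all genes of that list separated. Its scale is not stated, few values are whole numbers, and cells that a spreadsheet had turned into dates were left out, which left 6 of the 7 models with 2 or more genuine values on both sides. All 6 passed limma's test at an adjusted p of 0.05, against a background of 98.4% of the 496 genes tested, so this count says little of the models. Of them 5 were higher with siRNA (background 49.6%) and 1 was lower (background 48.8%). The 2 models with 6 genuine values had groups that did not overlap, as had 97.4% of the 273 such genes.

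2310022B05Rik, on chromosome 8, had the highest values of the 7. Its values were 366, 366 and 364 with siRNA, against 299, 318 and 303 with vehicle, and it rose by 0.25 ± 0.04 on the log2 scale (SE, limma adjusted p = 7.02e-05). Gm40814, on chromosome 11, had 39.0 and 38.2 in the 2 siRNA libraries with genuine values, against 23.3, 30.3 and 28.9 with vehicle, a log2 difference of 0.50 ± 0.09 (SE, limma adjusted p = 0.000146). LOC108167440, which the RefSeq table used here does not list, had 17.5 and 17.6 with siRNA, against 14.7, 12.9 and 13.8 with vehicle (log2 difference 0.35 ± 0.10, SE, limma adjusted p = 0.00287). In each of these the siRNA values were all above the vehicle values, and the differences were small, with ratios of means of 1.19, 1.40 and 1.27.

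2900026A02Rik, also named Kiaa1671, had 13.95, 12.4 and 14.2 with siRNA, against 9.91 and 11.3 with vehicle (log2 difference 0.35 ± 0.11, SE, limma adjusted p = 0.00527). 4932438A13Rik, also named Kiaa1109 or Tweek, encodes a large protein known in the fly for a part in synaptic vesicle recycling. It had 11.99 and 11.9 with siRNA, against 9.83 and 9.78 with vehicle (log2 difference 0.28 ± 0.12, SE, limma adjusted p = 0.0268). The call of 4932438A13Rik was lost in 4 of the 6 fits that left out 1 library, siRNA 1 or 3 or vehicle 1 or 2 (limma adjusted p = 0.0680 to 0.0982), and that of 2900026A02Rik without vehicle 2 (0.0928).

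LOC665755, on chromosome 5, was listed at 0 in each siRNA library, against 0.47, 0.23 and 0.98 in the vehicle libraries (limma adjusted p = 9.15e-05 on log2 of the value plus 0.1). No fold is given, since the values are no counts. Gm38481, on chromosome 2, had 1 genuine siRNA value, 28.9, against 35.9 and 31.3 with vehicle, and was not tested. All 6 calls held without vehicle 3, and the group means of the genes with missing cells rest on fewer libraries than 3.

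**Figure D5:**
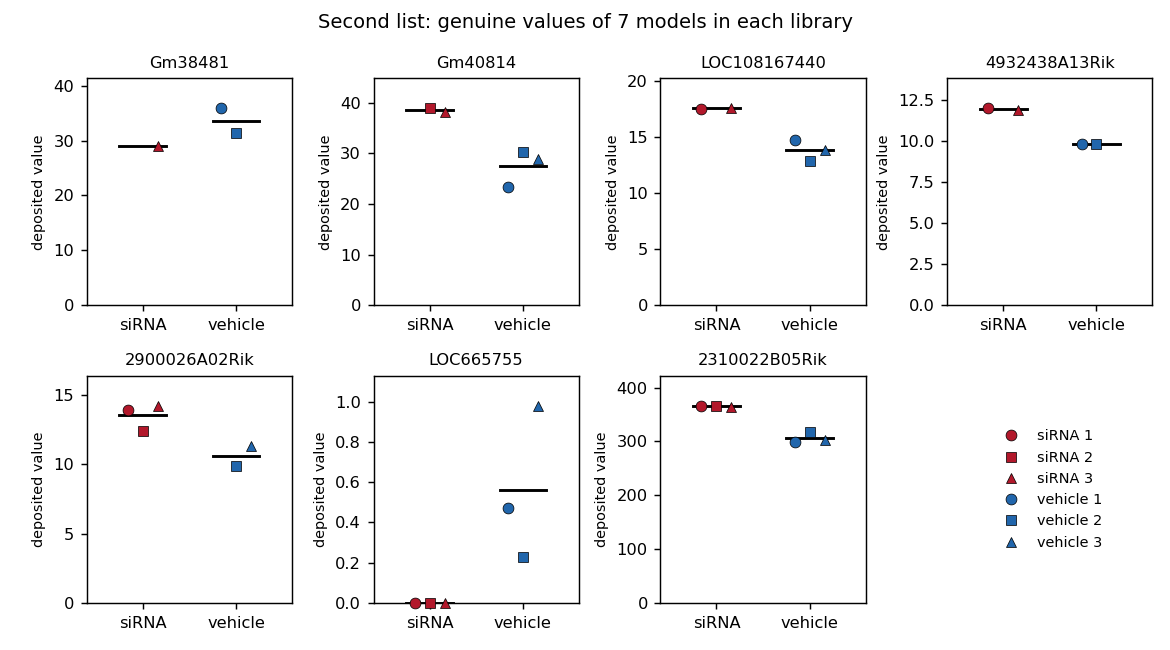
Genuine deposited values (y axis, scale not stated, starting at 0 in each panel) of the 7 models of the second list, with siRNA libraries left of vehicle libraries, shapes for the replicate number and lines at the group means. In 5 panels the siRNA points lie above the vehicle points, with 2310022B05Rik at 364 to 366 against 299 to 318, and LOC665755 is at 0 in each siRNA library.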

How the data were processed

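The 6 libraries were made from poly(A) RNA and sequenced as DNA nanoballs. The study's methods name HISAT and Bowtie2 for alignment and give "RSE" for expression levels, and the submitters' processing notes name Bowtie2, RSEM and DESeq2. No version, build, annotation or use of strand is stated, and coordinates are left out for that reason.

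In the count list are estimated counts, which the authors deposited as read counts per gene, with the mean of each group. Its 232 genes are a selection, so column totals are not library sizes and the depth of the libraries is unknown. For each gene the authors deposited their own log2 ratio between the groups and its p-value, and neither was used. The second list (602 further entries of a table of 834) was deposited under the same heading, but 0.920% of its values are whole numbers. These deposited values were treated as a score of unknown scale. Of its 3612 cells, 3042 hold genuine numbers, 42 calendar dates and 528 numbers in date format, of which 526 equalled the mean of the other values of their group within 0.01. Only genuine numbers were used.

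The 25 and 7 models were taken by name, and they and the marker lists were chosen with earlier results of these data known. Groups came from the sample titles. After rounding the counts, edgeR's quasi-likelihood test was fitted (version 4.0.16, in R 4.3.3), unpaired, with 1 common library size and a summed count of at least 10. The standard error was taken as the log2 fold divided by the square root of F. The second list went through limma 3.58.1 with a trend, after adding 0.1 and taking log2, in the 496 genes that had 2 or more genuine values on both sides. Adjusted p-values are Benjamini-Hochberg values over each list, with a threshold of 0.05. Both tests were checked on simulated data.

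Ratios with a group of 1 to 3 counts carry an exact 95% counting interval, and a group at 0 was set at 3 counts over the group. Shared sequence was counted as 50-base stretches, on the transcript strand, between the transcripts of a gene and those of all other genes of GENCODE M21 (GRCm38). This annotation held 231 of the 232 gene identifiers and 644 of 650 Ensembl transcript identifiers, and may differ from the one the authors used. Satellite repeat models were taken by name, from a list of 12, before any rule on sequence. Another model was taken to lie over several genes where at least 2 overlapping genes on its strand held at least 1% of its stretches each and no more than 20 genes shared sequence with it, and to have copies elsewhere where at least 80% was shared. Sequences are from GENCODE M21, and names and chromosomes from it and from RefSeq (GRCm38.p6). Values in every library are given for models whose groups do not overlap, with a mean of at least 20 in a group, with at least 80% of their counts in 1 library or in the second list, and here for the others too. Alternatives were TMM scaling, DESeq2 1.42.0, limma-voom, other filters and pseudocounts, median centring, leaving out each library and a replicate block. TMM-scaled sums of each kind of model, and sums, separations and mean splits without each library, were added after seeing the data.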

Additional observations from a re-analysis of the deposited data

How the results depend on the processing

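Of the 25 models of the count list 22 kept the sign of their fold in every setting in which they were fitted. Among these, A530016L24Rik and Gm12248 were not fitted without vehicle 3, where their summed counts fell under 10. In that setting their means turned. The ratio of A530016L24Rik was 0.111 with all libraries and 1.33 without vehicle 3. Gm12248 had means of 1 with siRNA and 11 with vehicle, and of 1 and 0 without vehicle 3. Gm45234 (-1.59) turned to 0.037 with TMM and to 0.0029 with DESeq2's own size factors, and ranged from -2.75 to 0.18 when 1 library was left out. Gm28635 ranged from -1.02 to 9.24 and Gm20517 from -0.21 to 2.20 over the same fits. The 9.24 came without vehicle 3, where the vehicle group of Gm28635 was at 0, and depends on the constant the tool adds. The median over the models was 1.10, 1.88 with TMM and 1.02 with the block, and ranged from -0.40 (without siRNA 3) to 1.25 when 1 library was left out. Models called in the count list numbered 0, and 1 with DESeq2's own size factors, with 0 to 1 when 1 library was left out. Over the whole list edgeR called 0 genes, 6 without vehicle 1 and 5 without vehicle 2, and DESeq2's own size factors gave 1. Models with groups apart numbered 7, against 18.5% of the whole list, 9 after TMM scaling (15.5%), when Gm10406 overlapped, and 9 to 10 when 1 library was left out (24.1% to 36.2%). With all libraries the filter on low counts removed no gene, and a mean of at least 10 left 15 models, none of them called.

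In the second list the models called numbered 6, and 2 of the 2 models tested where only genes with values in all 6 libraries were tested. They numbered 4 to 6 when 1 library was left out, with 444 to 466 of 496 genes called, where a group of 1 value was assumed to vary like the others, and 7 with date-format cells kept, with 583 of 588 genes called. No sign changed. With the replicate number as a block, edgeR called 0 models in the count list, and limma called 5 of 6 models and 476 genes, against 488, the lost one being 4932438A13Rik (limma adjusted p = 0.0921). Deviations of same-numbered libraries correlated across genes at 0.066, 0.045 and 0.117 in the count list and 0.253, 0.123 and 0.034 in the second, and not every library correlated best with its own number, so the numbers were not taken to pair the samples.

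The lists are selected, library depth is unknown, 3 libraries a group leave the errors wide at low counts, and the annotation behind the deposited counts is unknown.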

Other observations

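Of the other 207 genes of the count list 6 shared at least 80% of their stretches with other genes, and they were chosen for description after their values were seen. Samt1d, with 94.7% shared, had 52.2, 80.9 and 45.9 counts with siRNA, against 38.7, 15.5 and 2.45 with vehicle, and every siRNA value was above every vehicle value. Npcd, with 93.7% shared, had 2.76, 4.96 and 13.96 counts with siRNA, against 2.83, 0 and 0 with vehicle, and the groups met at siRNA 1 and vehicle 1. Tgtp1 and Tgtp2, interferon-inducible GTPases that share 85.3% and 90.6%, were highest in vehicle 3. Tgtp1 had 60.1, 67.1 and 62.0 counts with siRNA, against 41.5, 57.7 and 574 with vehicle. Tgtp2 had 53.95, 73.9 and 50.9 counts with siRNA, against 32.55, 44.3 and 470 with vehicle. Without vehicle 3 the siRNA values of both were all higher. Pagr1a and Lenep had groups that overlapped.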
